A study of Mus musculus with 24 samples.

Results

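Genes of the TGF-beta and BMP pathways were followed across mouse liver cells and the organoids grown from them. They were 9 of the 31053 genes in the table of hepatocytes and hepatocyte organoids, of 25876 in the table of cholangiocyte organoids and of 20729 in the table of single organoid shapes. They were chosen by symbol: the ligands Tgfb1, Tgfb2 and Tgfb3, the receptor Tgfbr2, the pathway inhibitor Smad7, the matrix gene Tgfbi, and Id1, Id2 and Id3, which BMP signals switch on. All 9 symbols were found in all 3 tables. The question was how the level of each gene compared between primary cells and organoids, between passages and between organoid shapes.

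The cells came from livers of wild-type BALB/c mice of 6 to 8 weeks. Pri-Hep were primary hepatocytes, prepared by Percoll density and by removal of cells carrying the epithelial surface protein EpCAM. Hep-Orgs were organoids grown from such cells in Matrigel, in hepatocyte medium with the Notch inhibitor DAPT and the glucocorticoid dexamethasone (Dex), and were sequenced at passages 1, 5 and 10 (P1, P5, P10). Cho-Orgs were grown from EpCAM-positive cells in cholangiocyte medium and were sequenced at P0, P5 and P10. Each of these 7 groups had 3 bulk libraries. Hep-Orgs of grape-like, intermediate and round-like shape were picked at P0 from hepatocyte medium as it was before DAPT and Dex were added, with 1 Smart-Seq library each. By the study's media list both media held A83-01, a small molecule that inhibits the type I receptor kinases of TGF-beta. Its listed concentration was higher in the hepatocyte medium, which is listed there with DAPT and Dex. The cholangiocyte medium alone held Noggin, a protein that binds BMPs and keeps them from their receptors. Noggin and the listed concentration of A83-01 separated Cho-Orgs from Hep-Orgs together with other medium components and the cell of origin. These cannot be told apart.

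TGF-beta ligands are secreted in a latent form, and once released they bind the type II receptor TGFBR2, which recruits and activates a type I kinase that phosphorylates SMAD2 and SMAD3. BMPs use other receptors and SMAD1, SMAD5 and SMAD9. In the liver TGF-beta restrains hepatocyte growth and drives matrix deposition by stellate cells, while BMPs control iron handling through hepcidin. ID proteins lack a DNA-binding region and hold basic helix-loop-helix factors in inactive pairs, and SMAD7 blocks the activated receptor as a feedback inhibitor.

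Levels are given in FPKM as deposited, that is, sequenced fragments scaled by the length of the gene and by library size. In the hepatocyte table that size was an adjusted one, as described with the processing. The hepatocyte table held 14068906 to 27160365 fragments per library, recovered from the whole steps of its values. The Cho-Orgs libraries rested on an estimated 37470000 to 39930000 fragments and the Smart-Seq libraries on 40040000 to 40380000. Tests used limma on log2(FPKM + 1) over genes with at least 1 FPKM in at least 3 libraries of a table, with a two-sided test and Benjamini-Hochberg adjustment over all genes tested, and a gene was called at an adjusted p under 0.05. Fold changes on this scale understate the change of low genes. Sources of the 3 libraries of a group are given both as mice and as separate cultures, so p-values measure only the spread between these libraries.

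Markers of the labelled cells were read first. The Pri-Hep libraries held Alb, the albumin gene, at 112 ± 7.99 FPKM (SD, n = 3), far below the cholangiocyte gene Spp1 at 3144 ± 56.7 FPKM, and Krt19, a cholangiocyte keratin, stood at 237 ± 6.66 FPKM. The summed level of 10 hepatocyte markers was 609 to 643 FPKM in Pri-Hep and 622 to 671 FPKM in Hep-Orgs, against 3859 to 3957 and 3803 to 4018 FPKM for 10 cholangiocyte markers. The Pri-Hep and Hep-Orgs libraries thus held more of the cholangiocyte than of the hepatocyte markers, against their labels. Correlations of log2 fragment counts between a Pri-Hep and a Hep-Orgs library were 0.994 to 0.995 over 27 pairs, the same range as within groups. In Cho-Orgs the 10 hepatocyte markers summed to 7239 to 8168 FPKM at P0, 206 to 253 at P5 and 77.8 to 83.5 at P10. The 10 cholangiocyte markers summed to 5288 to 6642, 3649 to 3785 and 3414 to 3449 FPKM. At P0 the Cho-Orgs libraries thus held more of the hepatocyte than of the cholangiocyte markers, also against their label. Summed levels of 10 proliferation genes were 350 to 507, 194 to 199 and 81.0 to 88.3 FPKM. Of the hepatocyte markers 9 of 10 fell, and of the proliferation genes 10 of 10, at both P5 and P10 against P0. Of all genes tested in Cho-Orgs, 22.6% fell at P5 and 31.3% at P10. The part of these markers in the results below was not tested. In these bulk samples fewer cells of a type and less RNA per cell cannot be told apart.

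Promoter sequence was available for 6 of the 9 genes, from RefSeq on GRCm38.p6. The 250 bases before each start were searched on both strands for CAGAC, whose reverse complement is GTCTG and which is the core letters that SMAD3 and SMAD4 bind, and for GGCGCC, a palindrome of the GC-rich kind that BMP SMADs bind. Matches did not overlap each other in the stretches below. CAGAC was in the window of 4 of the 6 genes and in 42.2% of all 32851 promoter windows, and GGCGCC was in 2 of the 6 and in 9.59% of all windows. The stretches around the matches are shown for Tgfbr2, Id2 and Id3, since these genes changed together with others in Cho-Orgs, with 10 bases on each side and the match in capitals. A match is a description of these letters and shows no binding.
Id3, chr4:136143645-136143669, plus strand: tcctcggcgtCAGACcagcctaagg
Id3, chr4:136143744-136143768, plus strand: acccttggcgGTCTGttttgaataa
Tgfbr2, chr9:116175509-116175533, minus strand: acttggagccCAGACttggcggggt
Id2, chr12:25096308-25096333, minus strand: aggccccctgGGCGCCcagcgcacac
The first match of Id3 lay 167 bases and the second 68 bases before its start, the match of Tgfbr2 lay 160 bases before, and that of Id2 lay 231 bases before. In GENCODE M21 the stretches of Id3 fall in the 5′ UTR of a longer transcript and that of Id2 in an intron of one, and that of Tgfbr2 lies upstream of the gene.

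In Cho-Orgs the ligand genes moved in different directions with passage: Tgfb3 rose 4.63-fold from P0 to P10 in mean FPKM, while Tgfb1 fell 2.02-fold. The receptor gene Tgfbr2 rose 2.17-fold. Smad7, Id1, Id2 and Id3 were all lower at P5 than at P0 and higher at P10 than at P5. Tgfb2 and Tgfbi stayed near or under 1 FPKM in all 9 libraries and did not pass the filter, so 7 of the 9 genes were tested.

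Tgfb3 (chromosome 12, 86056745 to 86079041, minus strand, GRCm38) encodes the third TGF-beta ligand. Its level was 8.78, 9.83 and 6.26 FPKM in the 3 libraries of P0, 27.9, 30.7 and 26.0 FPKM at P5, and 38.3, 39.1 and 37.7 FPKM at P10. The 3 groups did not overlap in any pair, and P0 was the low group. The log2 fold change was 1.67 (SE 0.13, adjusted p = 4.4e-06, limma) at P5 and 2.10 (SE 0.13, adjusted p = 3.1e-07) at P10, both against P0. Against P5, P10 was higher by 0.43 (SE 0.13, adjusted p = 0.0139), and this last call was lost without P5 replicate 3 (0.38, adjusted p = 0.0541).

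Tgfb1 (chromosome 7, 25687002 to 25705077, plus strand) encodes the most widely expressed of the ligands. Its level was 7.62, 8.39 and 8.21 FPKM at P0, 7.02, 8.17 and 7.24 FPKM at P5, and 3.93, 4.15 and 3.92 FPKM at P10. P0 and P5 overlapped, and every P10 library lay below every library of P0 and P5. The difference between P5 and P0 did not pass the test (-0.10, 95% interval -0.25 to 0.05, adjusted p = 0.217), though with median-ratio scaling it did (-0.18, adjusted p = 0.0448), as did 29.8% of all genes in this direction. Tgfb1 fell at P10 by 0.86 (SE 0.07, adjusted p = 1.5e-06) against P0 and by 0.76 (SE 0.07, adjusted p = 8.6e-06) against P5 on the log2 scale.

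The levels of these 2 ligand genes, close at P0, were far apart at P10. Per length, mean Tgfb1 was 8.07 ± 0.41 FPKM and mean Tgfb3 8.29 ± 1.84 FPKM at P0 (SD, n = 3), within 1 SD of each other, whereas at P10 they were 4.0 ± 0.13 and 38.4 ± 0.70 FPKM. Tgfb2 (chromosome 1, 186622792 to 186705989, minus strand) encodes the second ligand. It was 0.15, 0.66 and 0.25 FPKM at P0, 0.43, 0.56 and 0.35 at P5, and 1.00, 0.92 and 1.17 at P10. These low values rested on about 35 to 254 fragments, and all 3 P10 libraries lay above the other 6. When all genes above 0 FPKM were tested, Tgfb2 was higher at P10 by 0.60 (SE 0.13, adjusted p = 0.00697) against P0 and by 0.49 (SE 0.13, adjusted p = 0.0229) against P5, where 23.7% and 16.7% of all genes tested were higher.

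Tgfbr2 (chromosome 9, 116084293 to 116175360, minus strand), the receptor that binds the ligand, had the smallest SE of the 7 tested genes. It was 30.8, 31.5 and 31.6 FPKM at P0, 46.0, 48.2 and 51.1 FPKM at P5, and 70.2, 66.9 and 66.1 FPKM at P10. The libraries of the 3 passages formed 3 separate bands in ascending order of passage. Tgfbr2 rose by 0.61 (SE 0.05, adjusted p = 7.7e-06) at P5 and by 1.09 (SE 0.05, adjusted p = 5.7e-08) at P10 against P0, and by 0.48 (SE 0.05, adjusted p = 3.4e-05) from P5 to P10. None of the 17 alternative fits of each of these comparisons changed the call.

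**Figure D1:**
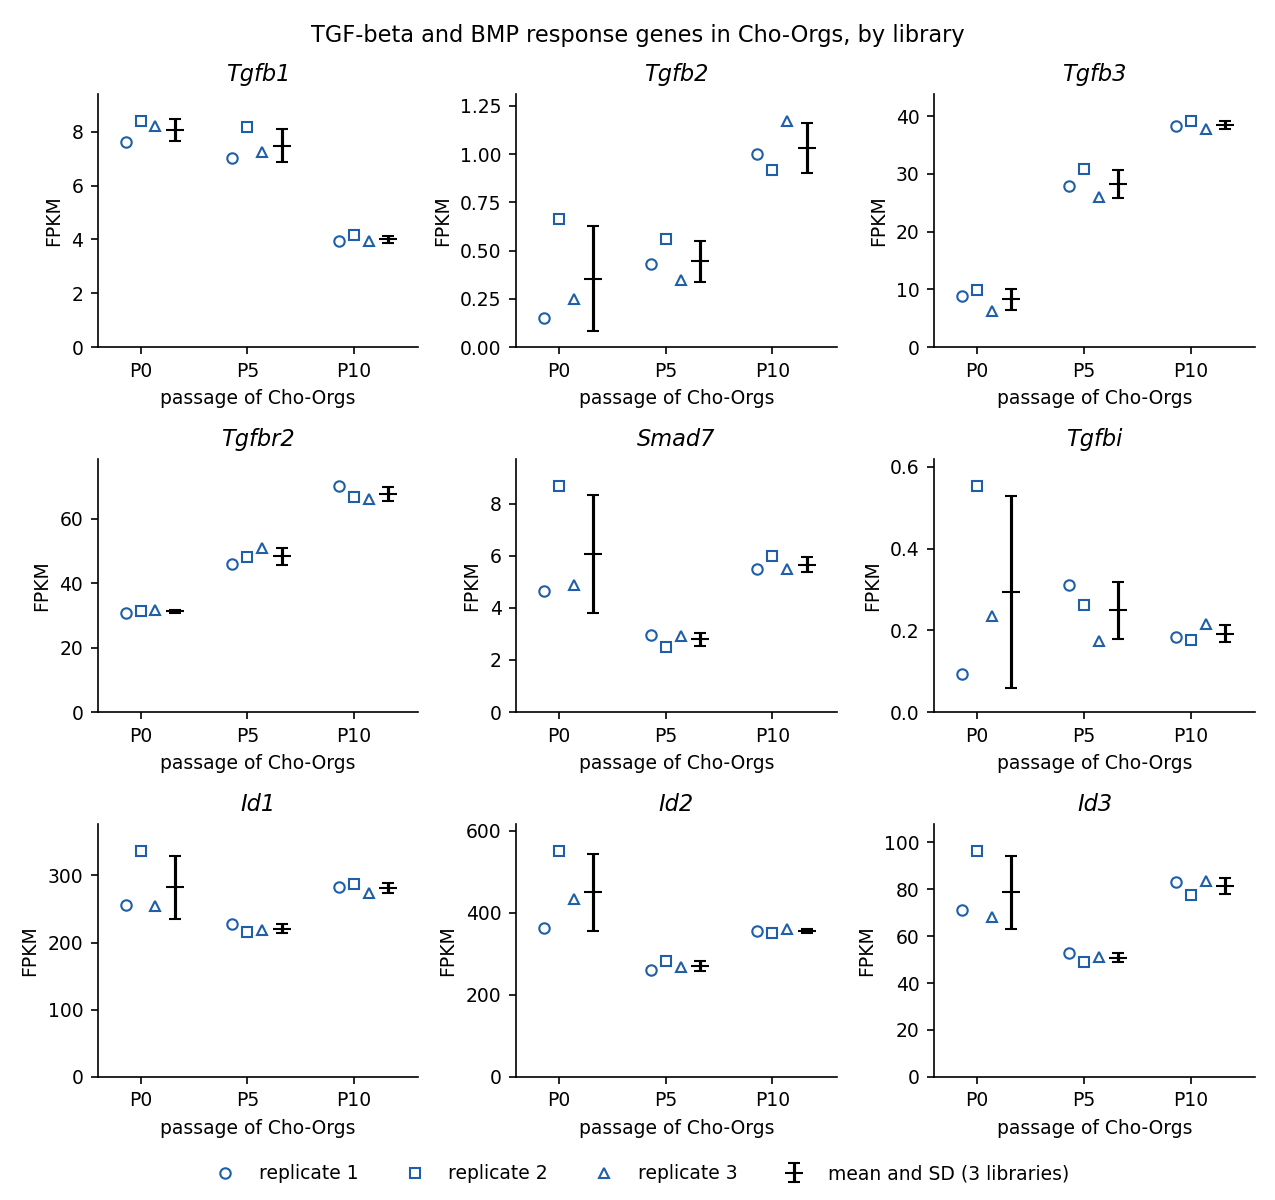
FPKM of the 9 genes (y axis, linear, from 0) in the 9 Cho-Orgs libraries by passage (x axis). Open symbols are libraries, 1 symbol per replicate number, and black bars are the mean and SD of 3 libraries. Tgfb3 and Tgfbr2 climb at each passage, Tgfb1 is low at P10 alone, and Smad7, Id1, Id2 and Id3 are lowest at P5. Replicate 2 of P0 is the highest P0 library for every gene but Tgfbr2.

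Smad7 encodes the inhibitor that TGF-beta and BMP signals both induce. Its level was 4.66, 8.68 and 4.87 FPKM at P0, 2.96, 2.52 and 2.91 FPKM at P5, and 5.49, 6.01 and 5.49 FPKM at P10. All P5 libraries lay below all others, and the P0 range enclosed the P10 values because of replicate 2. Smad7 fell by 0.85 (SE 0.17, adjusted p = 0.00222) from P0 to P5 and rose by 0.81 (SE 0.17, adjusted p = 0.00256) from P5 to P10. P10 and P0 did not differ by the test (-0.04, 95% interval -0.43 to 0.35, adjusted p = 0.844). Without P0 replicate 2 the sign turned and P10 was higher by 0.21 (adjusted p = 0.0273).

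The ID genes shared this dip. Id1 (chromosome 2, 152736251 to 152737410, plus strand) was 256, 337 and 254 FPKM at P0, 228, 215 and 218 FPKM at P5, and 283, 287 and 273 FPKM at P10. Every P5 library lay below every other, and P10 lay inside the P0 range. Id1 fell by 0.34 (SE 0.10, adjusted p = 0.0120) from P0 to P5 and rose by 0.35 (SE 0.10, adjusted p = 0.00996) from P5 to P10.

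Id3 (chromosome 4, 136143497 to 136145755, plus strand) moved the same way. It was 71.3, 96.4 and 68.3 FPKM at P0, 52.7, 48.9 and 50.9 FPKM at P5, and 83.2, 77.6 and 83.4 FPKM at P10. The P5 libraries again lay below all others. Id3 fell by 0.60 (SE 0.11, adjusted p = 0.00120) and then rose by 0.67 (SE 0.11, adjusted p = 5.5e-04).

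Id2 (chromosome 12, 25093799 to 25097140, minus strand) was the most abundant of the 9 genes per length in Cho-Orgs. Its level was 364, 551 and 434 FPKM at P0, 259, 283 and 269 FPKM at P5, and 355, 351 and 359 FPKM at P10. Here all 3 groups were apart, with P0 the highest, P10 between and P5 the lowest. Id2 fell by 0.71 (SE 0.12, adjusted p = 7.3e-04) from P0 to P5 and rose by 0.39 (SE 0.12, adjusted p = 0.0169) from P5 to P10. Without P5 replicate 1 the rise missed the threshold (0.37, adjusted p = 0.0564).

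Between P10 and P0 the ID genes ended at different places. Id2 stayed lower at P10 by 0.32 (SE 0.12, adjusted p = 0.0363), a call lost without P0 replicate 2 (-0.16, adjusted p = 0.0701), without P0 replicate 3 (adjusted p = 0.0629), without P5 replicate 1 or 3 (adjusted p = 0.0504 and 0.0520) and without any 1 of the 3 P10 libraries (adjusted p 0.0726 to 0.0853). The differences of Id1 (0.01, 95% interval -0.21 to 0.22, adjusted p = 0.958) and Id3 (0.07, 95% interval -0.18 to 0.31, adjusted p = 0.611) did not pass the test. Without P0 replicate 2 both became called, at 0.14 (adjusted p = 0.020) for Id1 and 0.22 (adjusted p = 0.00457) for Id3. The libraries of P0 also spread more than the others over all genes, with a median SD of 0.11 on the log2 scale against 0.07 at P5 and 0.05 at P10.

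Tgfbi (chromosome 13, 56609523 to 56639562, plus strand), a secreted matrix protein named for its induction by TGF-beta, was scarcely measured in Cho-Orgs. It was 0.09, 0.55 and 0.24 FPKM at P0, 0.31, 0.26 and 0.17 at P5, and 0.18, 0.18 and 0.22 at P10, or about 14 to 83 fragments. The P0 libraries alone covered the whole range of the 9, so P5 and P10 both overlapped P0. When all genes above 0 FPKM were tested, the adjusted p of Tgfbi was 0.532 to 0.856 in the 3 comparisons.

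Most of the 11593 genes tested in Cho-Orgs changed between passages, so the counts of the 7 genes stand against a high background. From P0 to P5, 2 of the 7 rose and 4 fell, where 34.0% of all genes rose and 22.6% fell. With median-ratio scaling the split of all calls changed from 3938 higher and 2621 lower to 3087 higher and 3449 lower. At P10 against P0, 2 rose and 2 fell, against 41.0% and 31.3% of all genes. At P10 against P5, 6 rose and Tgfb1 alone fell, against 31.0% and 30.5%. The median log2 fold change of the 7 was -0.34, 0.01 and 0.43 in these comparisons, beside 0.06, 0.07 and 0.01 over all genes. The comparisons share groups, so the fall to P5 and the rise from P5 are not independent.

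**Figure D2:**
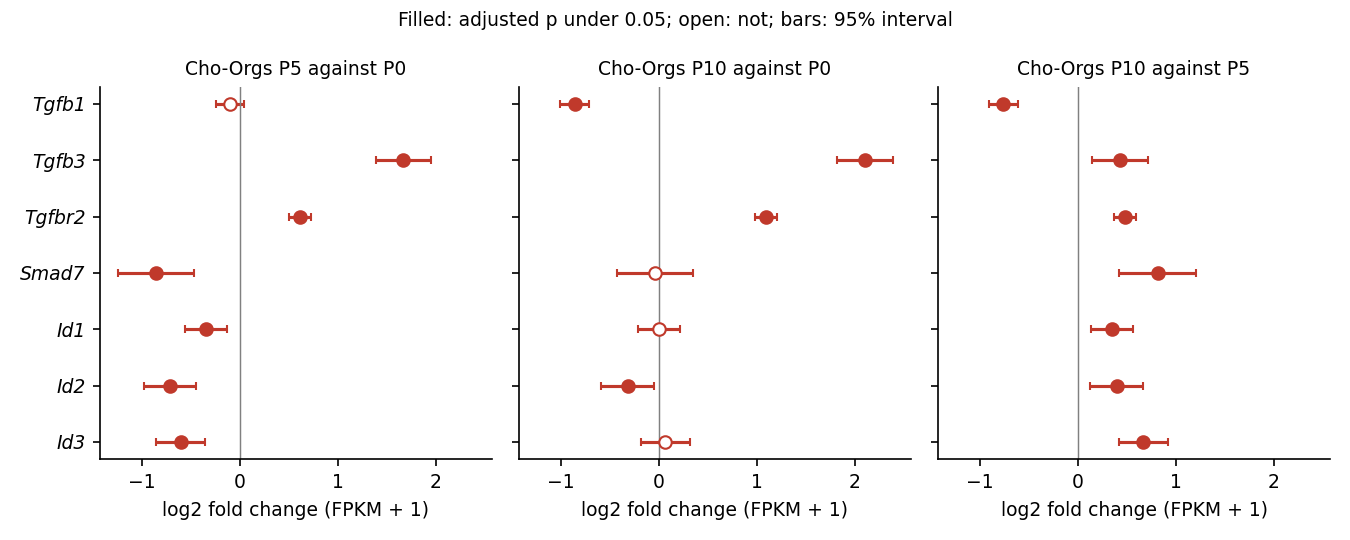
Log2 fold change on the log2(FPKM + 1) scale (x axis) of the 7 tested genes (y axis) in 3 comparisons of Cho-Orgs passages, with 95% intervals from limma. Filled points passed an adjusted p of 0.05 and open points did not. Smad7 and the 3 Id genes lie left of 0 at P5 against P0 and right of 0 at P10 against P5, whereas Tgfb3 and Tgfbr2 lie right of 0 in all 3.

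Over the 9 Cho-Orgs libraries the genes fell into patterns, described by Pearson's r of log2 values. The libraries share passage, so r reflects the 3 groups more than single libraries. P0 replicate 2 was also the highest of the 9 libraries for Smad7, Id1, Id2 and Id3, and r was not computed without it. Smad7 and Id1 had r = 0.99, Smad7 and Id3 0.97, Id1 and Id3 0.97, and Id2 had 0.84 to 0.90 with these 3. Tgfb3 and Tgfbr2 had r = 0.95 with each other, and Tgfb1 had -0.71 and -0.87 with them. Among 11088 genes, those most like Smad7 were Id1, Rara and Id3, those most like Id1 were Smad7, Icam1 and Rara, those most like Id3 were Cd14, Bckdha and Ext1, and those most like Id2 were H6pd, Tmem176a and Lrfn3, with r from 0.97 to 0.99. An r above 0.95 was reached by 9 genes for Id1, 14 for Smad7, 18 for Id3 and 25 for Id2. The steady patterns were common: 475 genes passed 0.95 with Tgfb1, led by Map3k21, Ywhaz and Fndc3a, 485 with Tgfb3, led by Mab21l4, Pmaip1 and Psrc1, and 849 with Tgfbr2, led by Mau2, Golga5 and Plxna1.

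Other genes of the pathways were followed in 8 lists fixed by role. Some genes stand in more than 1 list, so the counts of the lists overlap. Thbs1, Itgb6, Skil and Pmepa1 are listed as TGF-beta targets and under another role. Smad6, Smad9 and Bambi are listed as BMP targets and under another role. Their counts stand against the same shares of all genes as above, 34.0% higher and 22.6% lower at P5 against P0, 41.0% and 31.3% at P10 against P0, and 31.0% and 30.5% at P10 against P5. Of 6 BMP ligand genes tested in Cho-Orgs, 3 rose, 1 fell and 2 did not pass at P5 against P0, and 3 rose and 3 fell at P10 against P0. From P5 to P10, 1 rose and 5 fell. Bmp4, the most abundant of them, rose from 5.22 ± 1.21 FPKM at P0 to 26.0 ± 0.54 at P5 and 47.2 ± 1.68 at P10 (SD, n = 3), a log2 fold change of 2.97 at P10 (adjusted p = 1.6e-08, limma). Bmp7 fell from 7.74 ± 1.04 to 1.27 ± 0.045 FPKM and Bmp2 from 3.12 ± 0.75 to 0.41 ± 0.07 FPKM between P0 and P10. Bmp6, a ligand that sets hepcidin, fell from 4.95 ± 0.36 FPKM at P5 to 1.56 ± 0.20 FPKM at P10.

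Of 4 other TGF-beta family ligand genes, 3 rose and 1 fell at P5 against P0, 1 rose and 2 fell at P10, and all 4 fell from P5 to P10. Gdf15, a stress-induced family member, went from 44.1 ± 13.7 to 270 ± 16.5 and then to 106 ± 3.37 FPKM at P0, P5 and P10. Inhbb, which encodes the activin B subunit, fell from 26.8 ± 14.8 to 7.31 ± 0.54 and 1.88 ± 0.07 FPKM. Of 6 genes of ligand latency and activation, 4 rose at P5 with none lower, and 3 rose and 1 fell at P10, both against P0. Ltbp4 and Itgb6, which store and release latent TGF-beta, rose, and Thbs1, an activator of it, fell at P10 from 12.9 ± 3.44 to 5.68 ± 0.03 FPKM.

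Of 7 other receptor genes, 4 rose and 1 fell at P5, and 5 rose with none lower at P10, both against P0 (34.0% and 22.6% of all genes at P5, 41.0% and 31.3% at P10), beside the rise of Tgfbr2. Acvr2a, a type II receptor of activins, rose from 5.62 ± 0.48 to 10.1 ± 0.65 FPKM and Bmpr2, that of BMPs, from 4.23 ± 0.61 to 7.93 ± 0.46 FPKM between P0 and P10. Of 5 SMAD genes, 3 rose and 1 fell in both comparisons with P0. Smad3, which carries the TGF-beta signal, rose from 23.0 ± 1.52 to 41.3 ± 1.67 FPKM between P0 and P10. The genes of the BMP SMADs moved apart, since Smad1 fell from 14.6 ± 1.35 to 10.9 ± 0.66 FPKM and Smad5 rose from 6.63 ± 0.50 to 10.6 ± 0.46 FPKM. Of 12 negative regulators besides Smad7, 7 rose and 4 fell at P10 against P0. The related corepressors moved apart: Tgif1 rose from 12.3 ± 0.50 to 28.7 ± 0.32 FPKM while Tgif2 fell from 6.52 ± 1.03 to 0.72 ± 0.06 FPKM.

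Of 13 listed TGF-beta target genes, some also counted above, 5 rose and 4 fell at P5, and 5 rose and 6 fell at P10. Both comparisons were against P0. All genes gave 34.0% and 22.6% at P5 and 41.0% and 31.3% at P10. Fn1, the fibronectin gene, fell from 128 ± 33.1 to 11.3 ± 0.75 FPKM at P10. Moving the other way, the cell cycle inhibitor gene Cdkn2b rose from 18.2 ± 3.83 to 87.4 ± 1.42 FPKM (log2 fold change 2.22, adjusted p = 1.1e-07, limma) and the matricellular gene Ccn2 from 110 ± 37.1 to 256 ± 4.37 FPKM. Col4a1, a basement membrane collagen, was 48.4 ± 6.65 FPKM at P0, 162 ± 8.19 at P5 and 39.1 ± 1.44 at P10, high at P5 where Smad7 and the Id genes were low. The called target genes thus moved in both directions.

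Of 6 listed BMP target genes, 2 rose and 3 fell at P5, and 4 rose and 2 fell at P10, both against P0. The shares of all genes were 34.0% and 22.6% at P5, and 41.0% and 31.3% at P10. Hamp, the hepcidin gene and also a hepatocyte gene, was 136 ± 81.6 FPKM at P0, 5.01 ± 0.55 at P5 and 0.07 at P10, where it rested on about 1 fragment per library. Against the floor of 3 fragments per library it was at least 703-fold lower at P10 than at P0, and reads of the near-identical gene Hamp2 may be counted with it. Hey1, a transcription repressor, fell from 5.17 ± 1.72 to 0.23 ± 0.11 FPKM. Msx1 rose from 0.92 ± 0.22 to 3.45 ± 0.40 FPKM, and Id4, the remaining ID gene, from 0.34 ± 0.24 to 2.05 ± 0.22 FPKM. Atoh8, a BMP-induced helix-loop-helix gene, fell to 5.09 ± 0.39 FPKM at P5 and rose to 13.5 ± 1.63 at P10, and was 9.0 ± 3.35 at P0. The same passages took the summed hepatocyte markers from at least 7239 to at most 83.5 FPKM, as given above.

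**Figure D3:**
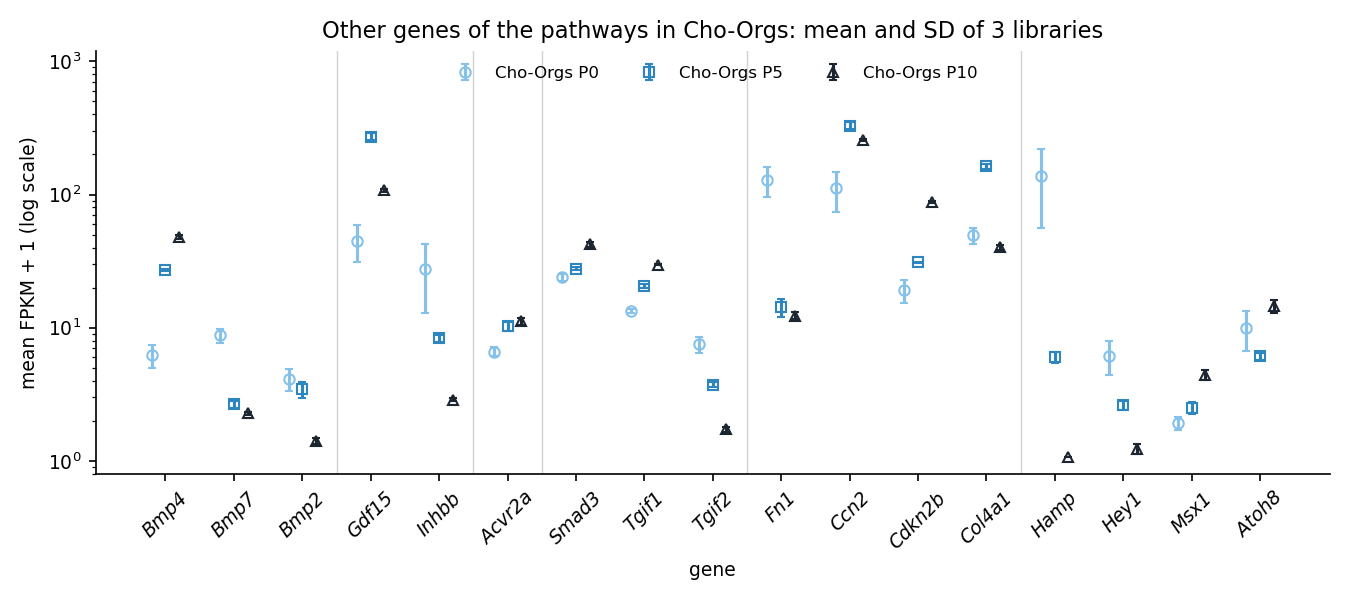
Mean FPKM + 1 (y axis, log scale) with SD of 3 libraries for the other pathway genes shown (x axis) in Cho-Orgs at P0, P5 and P10. Thin grey lines separate BMP ligands, other ligands, a receptor, SMAD3 and corepressors, TGF-beta targets and BMP targets. Bmp4 and Cdkn2b climb with passage, Tgif2 and Hamp drop, and Gdf15 and Col4a1 peak at P5.

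In Pri-Hep and Hep-Orgs no difference in these genes passed the test. Of the 9, all but Tgfbi passed the filter, and none of the 8 tested was called among the 4 groups (moderated F-test of limma over 10986 genes), between Pri-Hep and the mean of the Hep-Orgs passages, or between P1 and P10 of Hep-Orgs. The share of all genes called was 0.0182% (2 genes), 0% and 0%. Without adjustment, p was under 0.05 for 1, 2 and 1 of the 8 genes in these comparisons, and for 1098, 966 and 986 of all genes. On recovered fragments, limma-voom called 1 of the 8 among the 4 groups, which was Id1 (adjusted p = 0.0466), and 0.592% of all genes (65 genes).

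Id1 was 258, 228 and 248 FPKM in Pri-Hep, 259, 271 and 272 at P1, 270, 274 and 273 at P5, and 270, 253 and 259 at P10. Only 1 Pri-Hep library reached the range of Hep-Orgs. The difference of all Hep-Orgs from Pri-Hep was 0.12 (95% interval 0.05 to 0.19, adjusted p = 0.335), with an unadjusted p of 0.00206. Id2 was 262 to 279 FPKM over the 12 libraries, a coefficient of variation of 2.13% where counting error alone gives 0.90%, and the difference from Pri-Hep was -0.01 (95% interval -0.05 to 0.03).

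Id3 was 14.5, 12.5 and 13.7 FPKM in Pri-Hep, 14.4, 15.9 and 16.9 at P1, 15.3, 13.8 and 15.5 at P5, and 15.1, 13.2 and 12.1 at P10. The groups overlapped, and P10 against P1 gave -0.21 (95% interval -0.38 to -0.04, adjusted p = 0.451). Smad7 was 3.23 to 4.5 FPKM over the 12 libraries (median 3.75), with a difference from Pri-Hep of -0.03 (95% interval -0.19 to 0.12).

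Among Tgfb1, Tgfb2 and Tgfb3, only Tgfb3 was held in quantity by these libraries. It was 27.1, 27.2 and 28.1 FPKM in Pri-Hep, and its 9 Hep-Orgs values ran from 24.8 to 26.9 FPKM, all below Pri-Hep. The difference was -0.08 (95% interval -0.14 to -0.02, adjusted p = 0.469), with an unadjusted p of 0.0154. Tgfbr2 was 18.9 to 20.9 FPKM over the 12 libraries (median 19.6). Tgfb1 was 0.92 to 1.37 FPKM and Tgfb2 1.00 to 1.44 FPKM, on 76 to 138 and 81 to 199 fragments, and their coefficients of variation of 10.9% and 9.85% were close to the 9.69% and 8.41% of counting error. Tgfbi was 0.01 to 0.17 FPKM, or 1 to 12 fragments.

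**Figure D4:**
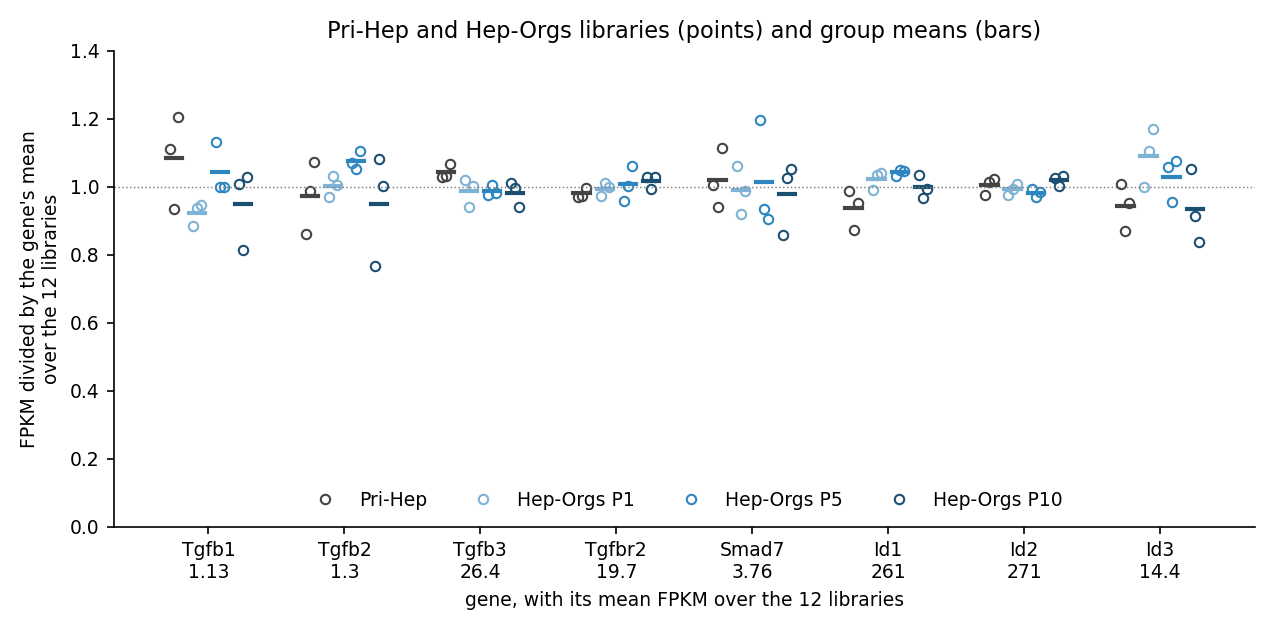
FPKM of 8 genes in each of the 12 Pri-Hep and Hep-Orgs libraries, divided by the gene's mean over these libraries (y axis, from 0). The mean FPKM is printed under each gene on the x axis, points are libraries and short bars are means of 3. All points lie between 0.77 and 1.21, and the 4 groups intermix for most genes.

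The 3 organoid shapes at P0 were compared by ratios only. Per group there was 1 library, so no test was made, and a gene was counted at a 2-fold difference on the log2(FPKM + 1) scale. Grape-like against round-like Hep-Orgs, 4 of the 9 genes were higher by at least 2-fold and none was lower, against 12.9% and 8.82% of 12595 genes. Grape-like against intermediate, 4 were higher and none lower, against 9.71% and 7.15%. Intermediate against round-like, Tgfbi was higher and Tgfb3 lower, against 3.85% and 2.54%. Intervals below cover counting error only.

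Tgfbi showed the widest gap of the 9. It was 18.3 FPKM in grape-like, 6.68 in intermediate and 1.42 in round-like organoids, a 12.9-fold difference between the ends (log2 ratio without a pseudocount 3.69, 95% counting interval 3.49 to 3.89). Tgfb1 was 107, 45.1 and 31.0 FPKM in the same order, 3.45-fold between the ends (log2 ratio 1.79, interval 1.75 to 1.83). Tgfbr2 was 108, 47.8 and 41.5 FPKM, 2.61-fold between the ends.

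The ID genes did not follow 1 order. Id3 was 202, 107 and 82.1 FPKM in grape-like, intermediate and round-like organoids, 2.46-fold between the ends. Id1 ran the other way, at 87.6, 158 and 150 FPKM, and was 1.72-fold lower in grape-like than in round-like Hep-Orgs (log2 ratio -0.78, counting interval -0.83 to -0.72). Id2 was 217, 251 and 203 FPKM.

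Smad7, at 7.35, 5.97 and 3.99 FPKM, and Tgfb2, at 1.45, 0.74 and 0.47 FPKM, were in the order of Tgfb1. Both were under 2-fold on the log2(FPKM + 1) scale, which shrinks the ratios of low genes. Without a pseudocount, as for the folds above, Smad7 was 1.84-fold and Tgfb2 3.07-fold between the ends. For Tgfb2 the log2 ratio was 1.62 (counting interval 1.31 to 1.93). Tgfb3 stood apart with 5.43 FPKM in grape-like, 1.46 in intermediate and 4.66 in round-like Hep-Orgs, lowest in the intermediate library. Of the 3 TGF-beta ligand genes, Tgfb1 was the highest per length in all 3 shapes.

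Markers of liver cell types moved with these levels. All 10 Kupffer cell and macrophage markers were at least 2-fold higher in grape-like than in round-like Hep-Orgs, with summed levels of 9488, 2747 and 1506 FPKM in grape-like, intermediate and round-like libraries. All 12 stellate and mesenchymal markers were higher by at least 2-fold, with 1711, 440 and 369 FPKM, and 9 of 10 sinusoidal endothelial markers, with 201, 78.3 and 39.0 FPKM. None of these 3 lists had a marker at 0 in any of the 3 libraries. Cholangiocyte markers went the other way, with 9 of 10 at least 2-fold lower in grape-like than in round-like and sums of 892, 3589 and 3003 FPKM. Krt19 was 9.86, 208 and 272 FPKM. Of 10 hepatocyte markers 7 were higher, with the highest sum in the intermediate library (6018, 10356 and 1401 FPKM). Of 10 proliferation genes 2 were lower (435, 345 and 624 FPKM), and of 3 blood lineage markers compared 2 were higher, with 32.8, 14.4 and 5.81 FPKM summed over 7.

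In the bulk tables the sums of the Kupffer cell, mesenchymal and endothelial lists were below those of all 3 shapes, though single markers were not. The 12 mesenchymal markers summed to 6.75 to 7.68 FPKM in the hepatocyte table, where 7 or 8 of 10 Kupffer cell and macrophage markers were at 0 in each group. In Cho-Orgs the mesenchymal sum was 64.7 to 79.5 FPKM at P0, most of it Reln at 69.2 FPKM, and at most 8.5 and 0.29 FPKM at P5 and P10. The Kupffer cell and macrophage sum was 43.1 to 48.8, 72.1 to 77.3 and 10.1 to 10.5 FPKM at P0, P5 and P10, with 3, 7 and 7 of the 10 at 0 in all libraries of the group. Most of it was Cd68, at 30.4, 74.5 and 9.53 FPKM. The endothelial sum was 1.03 to 1.98, 9.55 to 16.7 and 1.03 to 1.60 FPKM, and at P5 it was mostly Tek, at 13.2 FPKM. Reln at P0 and Tek at P5 were thus above their levels in every organoid shape. Their part in the results was not tested.

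**Figure D5:**
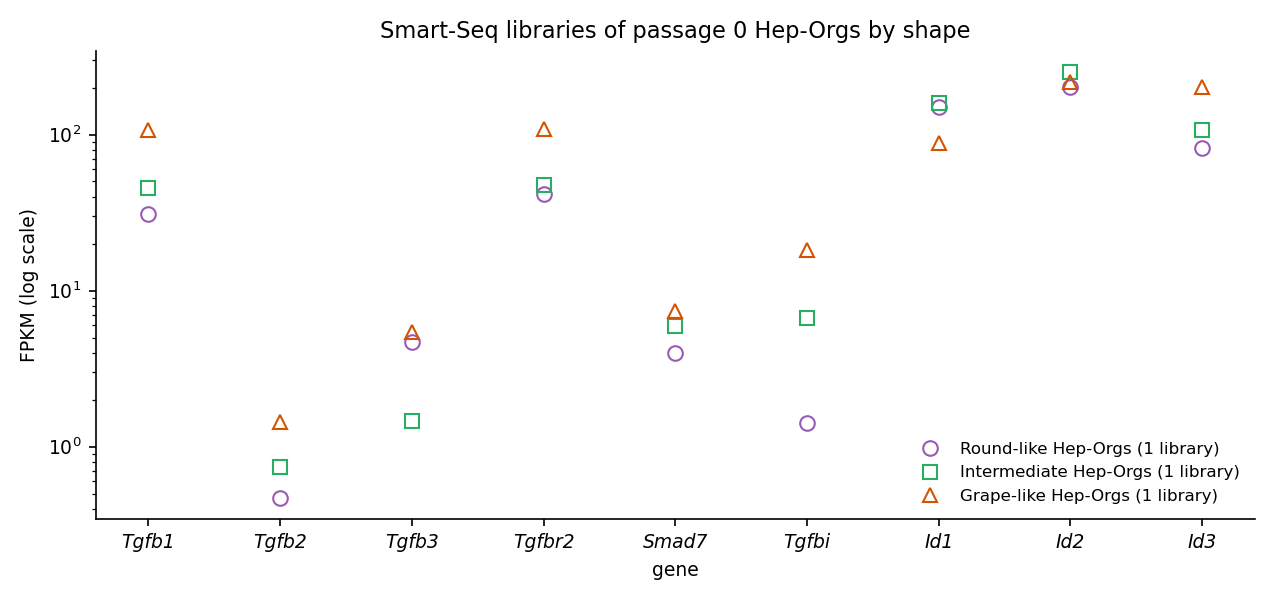
FPKM (y axis, log scale) of the 9 genes (x axis) in the Smart-Seq libraries of grape-like, intermediate and round-like organoids at P0, 1 library per shape. Grape-like is highest for all genes but Id1 and Id2, the gap is widest for Tgfbi, and Id1 is lowest in grape-like.

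Other pathway genes of these shapes also went both ways, beside 12.9% of all genes higher and 8.82% lower. Of 7 BMP target genes compared, 5 were at least 2-fold higher in grape-like than in round-like Hep-Orgs and none was lower. Smad6, Smad9 and Bambi, among these 5, are also in other lists. Hamp was at 93.8, 41.9 and 21.1 FPKM in grape-like, intermediate and round-like. Of 19 TGF-beta target genes, 8 were higher and 2 lower, from Vim, a mesenchymal filament gene, at 281, 78.7 and 59.6 FPKM to Ccn2 at 4.22, 19.4 and 77.7 FPKM. Of 9 BMP ligand genes, 5 were higher and 2 lower, with Gdf10 at 24.7, 7.63 and 3.69 FPKM and Bmp4 at 0.63, 1.72 and 2.53 FPKM. Eng, a TGF-beta coreceptor of endothelium, was at 67.0, 22.7 and 14.8 FPKM. Of 11 genes of ligand latency and activation, 4 were higher and 1 lower. Mmp14, a matrix protease that frees latent TGF-beta, was at 151, 48.7 and 32.7 FPKM. Itgb6, which also releases latent TGF-beta, went the other way at 0.45, 2.99 and 5.54 FPKM.

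Set side by side across the 3 tables, the TGF-beta ligand genes had different leaders. The tables were normalized apart, and the Smart-Seq libraries alone came from amplified mRNA, so levels are not compared by a test. Mean Tgfb3 was 25.9 to 27.5 FPKM in the 4 groups of the hepatocyte table and 8.29 to 38.4 FPKM in Cho-Orgs, and 1.46 to 5.43 FPKM in the organoid shapes. Mean Tgfb1 was 1.05 to 1.23 FPKM, 4.0 to 8.07 FPKM and 31.0 to 107 FPKM in the same tables. Id1 was at least 87.6 FPKM and Id2 at least 203 FPKM in all 24 libraries. Id3 was 12.1 to 16.9 FPKM in the hepatocyte table and 48.9 to 96.4 FPKM in Cho-Orgs. Tgfbr2 was 18.9 to 20.9 FPKM and 30.8 to 70.2 FPKM in the same tables.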

How the data were processed

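Libraries of 24 samples in 10 groups were sequenced. The 21 bulk libraries were made from poly(A) RNA, and the 3 Smart-Seq libraries from mRNA amplified at full length. The authors deposited 3 tables of FPKM values (fragments scaled by gene length and library size, not counts), each normalized apart. The submitters' processing notes name featureCounts 2.0.3, edgeR 3.40.2 and mm10, and the aligner is not given in the sources used here. The deposited FPKM values of the hepatocyte table were whole multiples of 1 fragment in 100% of low values (tolerance 0.02), and its libraries had equal median-ratio factors. Its values were thus scaled by an adjusted library size, and median-ratio factors could barely move its fits. Depth of the other tables was estimated from the commonest step of FPKM times gene length. No column of the tables was left out (0 not used).

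Values were tested in each table apart with limma 3.58.1 (R 4.3.3, lmFit and eBayes with trend) on log2(FPKM + 1), for genes that reached 1 FPKM in 3 or more libraries, checked on simulated data first. With 1 library a shape, Smart-Seq values were compared by a 2-fold ratio with no test. Groups came from the labels. The 9 genes, 8 pathway lists and 7 marker lists were chosen with earlier results of these data known. A gene of the TGF-beta target list is not reported here and was left out of its counts. Pathway genes named were drawn from those with the 2 largest called changes in each direction per list and comparison, and the most abundant of each list. Genes named for likeness were the 3 of highest r. Alternatives were a pseudocount of 0.1, other filters, TPM, median-ratio factors, eBayes without trend, the groups compared alone, limma-voom on recovered fragments, a replicate block and leaving out each library. Same-numbered libraries did not deviate together (median correlation of deviations -0.006 over 9 pairs in Cho-Orgs and -0.002 over 18 in the hepatocyte table). Intervals on fragments and floors cover counting error only. Python 3.11.15, numpy 2.4.6, pandas 2.3.3 and matplotlib 3.10.9 were used for the rest.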

Additional observations from a re-analysis of the deposited data

How the results depend on the processing

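Of the alternative fits of single genes, 487 kept the side of the threshold and, in Cho-Orgs, the direction. Of the rest, 13 lost the call, 4 gained it and 7 changed sign. Fits of single genes in the hepatocyte table compared its 4 groups at once, so they have no direction to keep. Among the 4 groups of the hepatocyte table, limma-voom on recovered fragments called 1 of the 8 tested members of the pathways, Id1 (beside 0.592% of all genes), where the other fits called 0 of them. The sign of Id1 at Cho-Orgs P10 against P0 changed with median-ratio factors (-0.0758) and that of Id3 did too (-0.0157). Leaving out 1 library moved the log2 fold change of this comparison between -0.0630 and 0.139 for Id1, between -0.0264 and 0.219 for Id3 and between -0.178 and 0.208 for Smad7, the highest value of each being without P0 replicate 2. The cause was not tested. Id2 at P10 against P0 also lost its call with TPM (adjusted p = 0.0563), with all genes above 0 FPKM (adjusted p = 0.0898) and with the compared groups alone (adjusted p = 0.0732), and at P10 against P5 with all genes above 0 FPKM (adjusted p = 0.0524). Leaving out 1 library gave 6 called genes at P5 against P0 in every fit, 3 to 6 at P10 against P0, and 6 to 7 at P10 against P5. Of all 11593 genes tested, these fits called 5743 to 6764, 7745 to 8503 and 6224 to 7701. In the hepatocyte table such fits called 0 of the members and 0 to 3 of all 10986 genes. With the replicate block 6, 4 and 7 genes were called in the Cho-Orgs comparisons and 0 in the hepatocyte table. These were the same counts as without pairing, and no call of the 9 genes changed. The block called 6381, 8278 and 6939 of all 11593 genes in Cho-Orgs. Members past 2-fold in the Smart-Seq comparisons numbered 4 to 5, 2 and 4 under all settings. Over all alternatives the adjusted p of limma ran from 0.0448 to 0.506 for Tgfb1 at P5 against P0, from 2.2e-04 to 0.0541 for Tgfb3 and 2.9e-05 to 0.0564 for Id2 at P10 against P5, and at P10 against P0 from 9.4e-04 to 0.0898 for Id2, 0.00457 to 0.977 for Id3, 0.020 to 1.0 for Id1 and 0.0273 to 0.957 for Smad7, and from 0.0466 to 0.552 for Id1 in the hepatocyte table. In the hepatocyte table counting error alone gives a coefficient of variation of 41.1% for Tgfbi, where 57.5% was seen.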

Other observations

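Further members of the pathway lists behaved as follows in Cho-Orgs. The most abundant latency gene was Ltbp3, at 33.2 ± 6.78, 48.2 ± 2.79 and 53.7 ± 2.13 FPKM at P0, P5 and P10 (SD, n = 3), and the most abundant of the other receptor genes was Acvr1b, a type I activin receptor, at 18.6 ± 2.0, 27.3 ± 0.41 and 28.8 ± 1.00 FPKM. Fstl3, which binds activins outside the cell, was 9.21 ± 4.92, 7.89 ± 0.46 and 2.56 ± 0.38 FPKM and fell at P10 against both earlier passages. Nbl1, a secreted BMP antagonist, rose at both later passages, from 6.22 ± 1.66 FPKM at P0 to 11.1 ± 0.88 at P5 and 13.6 ± 0.82 at P10. Smurf1, a ubiquitin ligase that marks SMADs for decay, rose from 12.6 ± 0.35 FPKM at P5 to 18.7 ± 0.53 at P10. In the hepatocyte table Nbl1 was 25.6 to 30.5 FPKM and Ltbp3 26.6 to 30.7 FPKM over the 12 libraries.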
